A study of Mus musculus with 2 samples.

Results

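Bone morphogenetic protein (BMP) signaling was described through 10 genes selected by symbol from the 32285 genes in the count matrices. They comprise the ligands Bmp2, Bmp4, Bmp5 and Bmp6, the type I receptors Bmpr1a and Acvrl1 (ALK1), the type II receptor Bmpr2, the co-receptor Eng (endoglin), and the inhibitory Smads Smad6 and Smad7. Droplet-based single-cell RNA-Seq (10x Genomics 3' chemistry) was measured in 2 libraries of live-sorted hindlimb muscle cells from female C57Bl/6J mice aged 24 months. In the first library (ATRA+agonist), muscles had received all-trans retinoic acid (ATRA) together with CD3254, an agonist of RXR-alpha, and BMS961, an agonist of RAR-gamma, and in the second (DMSO vehicle) they had received the solvent. Intramuscular injections were given on 3 days, every other day, into the quadriceps, gastrocnemius and tibialis anterior muscles of both hindlimbs. By the paper's methods, the sequenced cells came from the quadriceps and gastrocnemius only. The 3 compounds were given together and their effects cannot be told apart, and all mice were old females, so no young or male muscle enters the comparison. Cells of 2 mice were pooled per library. There was therefore 1 library per group, no difference between libraries could be tested across animals, and every interval given is a 95% exact interval that covers counting error only.

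In this pathway a secreted BMP dimer binds type I and type II serine/threonine kinase receptors, and the type I receptor phosphorylates Smad1, Smad5 and Smad9, which join Smad4 and act on genes such as Id1 and Id3. Smad6 and Smad7 are themselves induced by the signal and restrain it. In muscle, BMPs are known to sustain fiber mass and to keep activated muscle stem cells (MuSCs) proliferating, and in vessels ALK1 with endoglin is the receptor through which endothelial cells read circulating BMPs.

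After filtering, 6907 ATRA+agonist and 6953 vehicle cells remained, with median depths of 4653 and 4845 unique molecular identifiers (UMIs) per cell. Of all barcodes, 43 occurred in both libraries, 9 of them among the cells kept. Cells formed 25 clusters, of which 13 classes named from markers held at least 50 cells in both libraries and were compared. A further 5 classes reached 50 cells in 1 library and were described by their levels only. The names were rebuilt from marker genes and are therefore written as "-like", and genes of the BMP pathway took no part in the clustering. The Gdf10 FAP-like class met the markers of fibro-adipogenic progenitors (FAPs) but neither the Pi16 nor the Cxcl14 list. It was named after Gdf10, which led its cluster together with Fst, and both are BMP pathway genes. Their high levels in that class are therefore no separate result. All of the marker genes of their lists were at least 2-fold above the other cells in capillary endothelial-like, pericyte-like, tenocyte-like, MuSC-like, glial-like, macrophage-like and B cell-like cells. Short of 2-fold were Vtn in Cxcl14 FAP-like, Smoc2 in Gdf10 FAP-like, Actg2 in smooth muscle-like, and Cd209a and Clec10a in dendritic-like cells. The classes were named from these same lists, so this describes them and does not test the names. In the mast cell-like cluster the neutrophil-granule genes Elane, Mpo and Prtn3 stood among the leading genes beside mast cell proteases. The libraries differed in makeup as well. A cluster led by interferon-response genes held 3.42% (2.71 to 4.26) of the capillary endothelial-like cells in the ATRA+agonist library and 47.2% (45.0 to 49.4) in the vehicle library, and the B cell-like class held 641 against 76 cells.

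In GRCm38 Bmpr2 is at chr1:59763400-59879014, Bmp2 at chr2:133552159-133562885, Eng at chr2:32646595-32682669, Smad6 at chr9:63953076-64022059, Bmp5 at chr9:75775364-75900310, Bmp6 at chr13:38345107-38500302, Bmpr1a at chr14:34410734-34503341, Bmp4 at chr14:46383520-46390669 and Acvrl1 at chr15:101128522-101145336. RefSeq promoter windows (GRCm38.p6, 250 bases before to 50 bases after the annotated start) were matched for 7 of the 10 genes, all but Bmp2, Acvrl1 and Smad7. They were searched on both strands for the Smad motifs GTCTAGAC and GGCGCC and for DR5, the direct repeat bound by retinoic acid receptors with RXR, searched only as a pair of exact AGGTCA half-sites, 5 bases apart and in the same orientation. The 4 windows below belong to the genes on which the results turn: Smad6 and Bmp4 differed most between the libraries among endothelial cells, Bmp6 was the main endothelial ligand, and Bmpr2 was lower in most classes. Capitals mark a motif match.
Smad6, chr9:64022010-64022309, minus strand: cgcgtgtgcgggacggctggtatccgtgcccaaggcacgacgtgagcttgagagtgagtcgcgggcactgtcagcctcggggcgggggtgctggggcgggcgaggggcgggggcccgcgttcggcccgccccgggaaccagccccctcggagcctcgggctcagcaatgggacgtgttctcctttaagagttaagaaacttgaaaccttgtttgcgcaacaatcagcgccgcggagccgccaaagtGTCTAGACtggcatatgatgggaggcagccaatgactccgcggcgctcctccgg
Bmpr2, chr1:59764029-59764328, plus strand: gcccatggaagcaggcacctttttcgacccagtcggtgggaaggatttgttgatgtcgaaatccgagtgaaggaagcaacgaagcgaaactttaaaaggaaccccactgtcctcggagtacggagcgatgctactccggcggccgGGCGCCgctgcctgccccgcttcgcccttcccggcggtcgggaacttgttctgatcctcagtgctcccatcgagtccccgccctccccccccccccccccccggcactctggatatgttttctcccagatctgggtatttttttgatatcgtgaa
Bmp4, chr14:46390620-46390919, minus strand: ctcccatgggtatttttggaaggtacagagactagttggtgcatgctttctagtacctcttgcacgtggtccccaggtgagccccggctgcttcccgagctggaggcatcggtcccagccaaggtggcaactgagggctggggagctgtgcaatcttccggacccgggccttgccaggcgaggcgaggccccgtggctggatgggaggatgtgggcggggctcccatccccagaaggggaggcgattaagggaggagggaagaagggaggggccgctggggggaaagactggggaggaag
Bmp6, chr13:38345466-38345765, plus strand: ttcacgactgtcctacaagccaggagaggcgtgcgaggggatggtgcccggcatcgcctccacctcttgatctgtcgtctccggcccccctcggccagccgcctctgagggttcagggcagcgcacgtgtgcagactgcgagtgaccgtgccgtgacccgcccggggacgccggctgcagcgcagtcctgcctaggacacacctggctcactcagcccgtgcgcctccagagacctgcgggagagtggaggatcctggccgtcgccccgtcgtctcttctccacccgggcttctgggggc

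The palindrome GTCTAGAC was present in the Smad6 window, beginning 4 bases before the annotated start, and in 70 of all 32851 RefSeq promoter windows (0.213%). The motif GGCGCC was present in the Bmpr2 and Bmpr1a windows, beginning 105 and 198 bases before the start, and in 11.9% of all windows. This exact repeat was in none of the 7 windows and in 3 of all 32851 (0.00913%), and half-sites with other letters were not searched. No matches overlapped in these windows. A match is only the presence of these letters, and factor binding was not measured here.

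Levels are UMIs of a gene per 1000000 UMIs of all genes (CPM), summed over the cells of a class in a library. They were compared for the same gene between classes. Capture differs from gene to gene, which the shares of one gene among several, given further on, carry as well. A lower sum can come from fewer expressing cells or from less RNA per cell.

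BMP ligands were made by different cells. Bmp6 was highest in capillary endothelial-like cells, Bmp5 in pericyte-like cells, Bmp2 in the fibro-adipogenic progenitor (FAP) class marked by Pi16, and Bmp4 in Cxcl14-marked FAPs, with MuSC-like cells next among the compared classes. Among classes with at least 50 cells in a library, the leading class of each ligand was the same in both libraries.

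Bmp2, a ligand known for inducing bone and cartilage formation, measured 147 CPM (133 to 161) in Pi16 FAP-like cells of the ATRA+agonist library and 142 CPM (127 to 159) in those of the vehicle library. Cxcl14 FAP-like cells came next with 85.2 CPM (78.5 to 92.3) and 112 CPM (104 to 120), followed by pericyte-like cells with 48.1 CPM (34.7 to 65.0) and 68.2 CPM (53.4 to 85.7). In both libraries these 3 neighbours were separated by more than their counting intervals. Tenocyte-like cells gave 41.5 and 51.4 CPM, close below the pericyte-like cells with overlapping intervals. Bmp2 had no UMI in glial-like and B cell-like cells of either library and at most 7 UMIs in a library in capillary or arterial endothelial-like cells. Pi16 FAP-like cells with at least 1 Bmp2 UMI made up 57.5% and 59.5%, and 30 of 268 and 26 of 237 after every cell was thinned to 1000 UMIs, against 0 of 132 and 0 of 395 glial-like cells. Taking 3 cells as the limit that a count of 0 allows, up to 2.27% and 0.759% of glial-like cells could have had a Bmp2 UMI at this depth, which sets no limit on cells that express the gene. Median depths were 10476 and 9040 UMIs in Pi16 FAP-like cells and 5266.5 and 4535 in glial-like cells.

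Bmp4, a ligand close to Bmp2 in sequence, measured 189 CPM (179 to 200) and 170 CPM (160 to 181) in Cxcl14 FAP-like cells of the ATRA+agonist and vehicle libraries. MuSC-like cells had 182 CPM (168 to 197) and 110 CPM (100 to 121), which overlapped the Cxcl14 FAPs in the first library and lay below them in the second. Both libraries thus placed Bmp4 in a stromal class and in the stem cells. Gdf10-marked FAPs, Pi16 FAPs, tenocyte-like and capillary endothelial-like cells held between 37.1 and 65.8 CPM. Venous endothelial-like cells, present in number in the vehicle library only, had 131 CPM (99.8 to 168). In the ATRA+agonist library 29 such cells had 17 Bmp4 UMIs, or 235 CPM (137 to 377). Pericyte-like cells had 0 and 3 Bmp4 UMIs in 196 and 269 cells. Of MuSC-like cells, 54.5% and 43.2% had a Bmp4 UMI, or 13.0% and 12.1% after thinning, against 0.0% of pericyte-like cells in the ATRA+agonist library.

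Bmp5 was a ligand of pericytes and of connective tissue cells. Pericyte-like cells, which wrap capillaries, had 444 CPM (401 to 491) and 380 CPM (344 to 419). Tenocyte-like cells had 244 CPM (217 to 273) and 238 CPM (221 to 256), Cxcl14 FAP-like cells 200 CPM (190 to 211) and 169 CPM (159 to 179), and Gdf10 FAP-like cells 164 CPM (150 to 178) and 114 CPM (105 to 124). The intervals of these 4 neighbours were separate in both libraries, so that their order was the same in each. Pi16 FAP-like cells, the class with the most Bmp2, had only 31.0 and 17.2 CPM of Bmp5. MuSC-like cells had 0 and 2 Bmp5 UMIs. Within the pericyte-like class Bmp5 was found in both larger sub-clusters, at 312 and 339 CPM in the first and at 589 and 538 CPM in the second.

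Bmp6, a ligand best known for regulating hepcidin in the liver, was the ligand of the capillary. Capillary endothelial-like cells had 699 CPM (679 to 720) in the ATRA+agonist library and 788 CPM (766 to 810) in the vehicle library, from 4443 and 5074 UMIs. They held 65.4% and 59.7% of all Bmp6 UMIs in cells of the libraries. MuSC-like cells came second with 311 CPM (292 to 330) and 293 CPM (276 to 310). Arterial endothelial-like cells held 132 and 78.2 CPM, well below the capillary cells, and venous endothelial-like cells 76.3 CPM in the vehicle library. Pi16 FAP-like cells (140 and 118 CPM) and tenocyte-like cells (121 and 135 CPM) held more Bmp6 than Cxcl14 FAP-like cells (35.8 and 46.0 CPM) or Gdf10 FAP-like cells (5.83 and 10.0 CPM). A Bmp6 UMI was found in 57.2% and 65.2% of capillary endothelial-like cells, or 43.2% and 45.9% after thinning, against 0.578% and 0.246% of macrophage-like cells. Macrophage-like cells were deeper, with medians of 10859 and 9568 UMIs against 2793 and 3158. Within the low-UMI capillary sub-cluster of 597 and 338 cells, with a median of 812 UMIs per cell, Bmp6 was lower, at 125 and 154 CPM, than in the largest sub-cluster (983 and 1005 CPM).

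**Figure D1:**
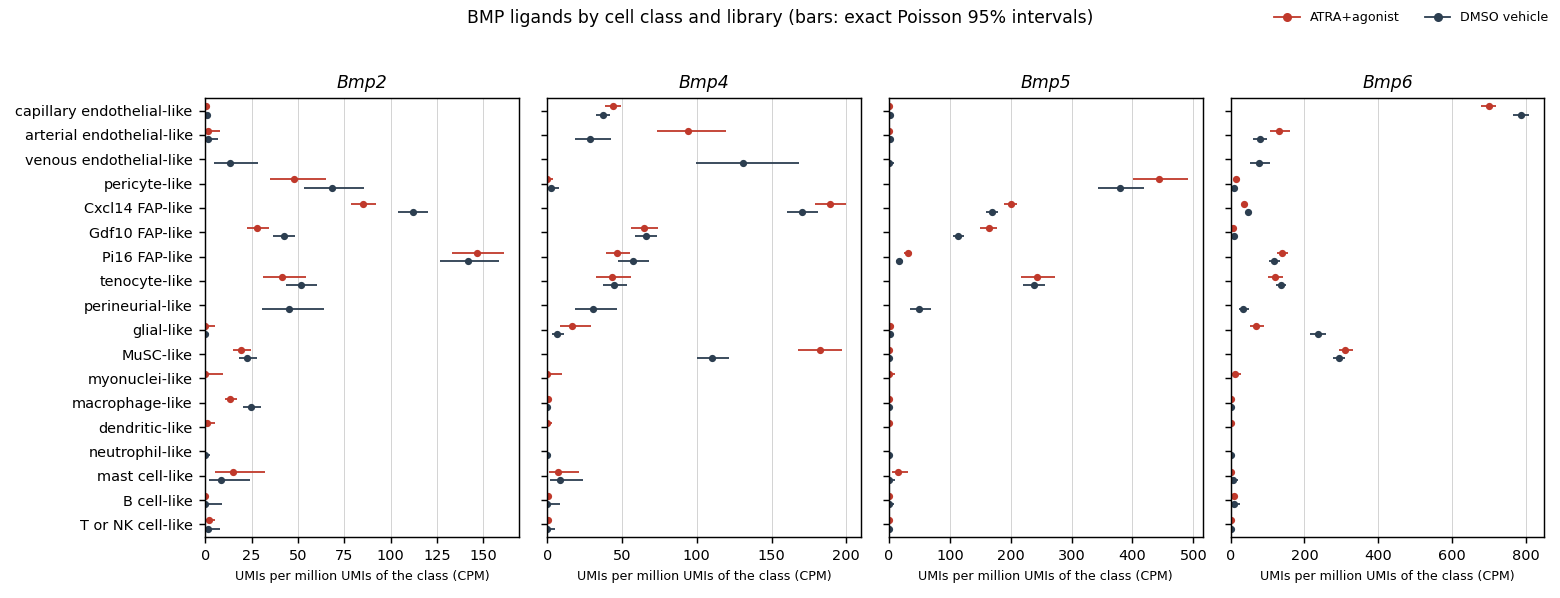
Level of Bmp2, Bmp4, Bmp5 and Bmp6 in each cell class of each library, in UMIs per 1000000 UMIs (CPM), with exact 95% counting intervals. Each ligand peaked in another class: Bmp2 in Pi16 FAP-like cells (147 and 142 CPM), Bmp4 in Cxcl14 FAP-like cells (189 and 170), Bmp5 in pericyte-like cells (444 and 380) and Bmp6 in capillary endothelial-like cells (699 and 788).

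The mix of the 4 ligands within a class was taken as shares of their UMIs, which count captured molecules and not the ligands' true proportions. Of the UMIs of Bmp2, Bmp4, Bmp5 and Bmp6 together, Bmp6 took 94.0% and 95.2% in capillary endothelial-like cells and Bmp5 took 87.6% and 82.7% in pericyte-like cells. In macrophage-like cells Bmp2 took 92.9% and 97.1%. In MuSC-like cells Bmp6 took 60.7% and 68.6% and Bmp4 35.6% and 25.9%. Because Cxcl14 FAP-like cells were many and deeply sequenced, they held 42.5% and 40.8% of all Bmp2 UMIs, 48.4% and 43.9% of Bmp4 UMIs and 50.3% and 36.8% of Bmp5 UMIs, although Bmp2 and Bmp5 were higher per UMI elsewhere.

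On the receiving side, the type I receptors Acvrl1 and Bmpr1a divided the tissue. Acvrl1 and Eng marked endothelial cells, whereas Bmpr1a marked FAPs, pericytes, glia, tenocytes and MuSCs and was low in endothelium. The type II receptor Bmpr2 was found in both.

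Bmpr1a, the ALK3 receptor of Bmp2 and Bmp4, measured 190 CPM (160 to 225) and 182 CPM (164 to 202) in glial-like cells. Pericyte-like cells had 156 and 184 CPM, Gdf10 FAP-like cells 159 and 129, Pi16 FAP-like cells 131 and 110, Cxcl14 FAP-like cells 124 and 126, tenocyte-like cells 119 and 123 and MuSC-like cells 105 and 112. Bmpr1a thus varied by less than 2-fold over these 7 classes, and neighbouring classes at the top overlapped in their intervals. Capillary endothelial-like cells had 7.71 CPM (5.71 to 10.2) and 4.66 CPM (3.14 to 6.65), from 49 and 30 UMIs. Arterial endothelial-like cells had 10 and 19 Bmpr1a UMIs in 139 and 151 cells, and venous endothelial-like cells none in 80 cells of the vehicle library. A Bmpr1a UMI was found in 51.5% and 50.6% of glial-like cells, or 19.8% and 15.8% after thinning, against 44 of 2249 and 22 of 1991 capillary endothelial-like cells.

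Acvrl1, the ALK1 receptor of circulating BMPs, went the other way. Arterial endothelial-like cells had 221 CPM (188 to 258) and 194 CPM (165 to 226), above capillary endothelial-like cells with 147 CPM (138 to 157) and 129 CPM (120 to 138). MuSC-like cells had 3.61 and 5.56 CPM, from 12 and 22 UMIs. Acvrl1 was also measured outside the endothelium, at 66.5 and 52.7 CPM in Cxcl14 FAP-like cells, 40.3 and 37.6 CPM in macrophage-like cells and 80.4 CPM (64.2 to 99.4) in dendritic-like cells of the ATRA+agonist library. A UMI of the gene was found in 54.7% and 54.3% of arterial endothelial-like cells, or 19.7% and 20.5% after thinning, against 2.66% and 3.96% of MuSC-like cells.

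Eng, the co-receptor that presents ligand to ALK1, measured 738 CPM (717 to 759) and 696 CPM (675 to 716) in capillary endothelial-like cells and 707 CPM (647 to 771) and 670 CPM (616 to 729) in arterial endothelial-like cells. Venous endothelial-like cells of the vehicle library had 750 CPM (672 to 833), so that the endothelial classes overlapped in their intervals. The next class, Cxcl14 FAP-like cells, had 103 and 104 CPM. A UMI of Eng was found in 71.7% and 75.8% of capillary endothelial-like cells, or 49.9% and 48.2% after thinning, and in 5.81% and 7.17% of MuSC-like cells.

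Bmpr2, the type II receptor, was the broadest of the receptors. Among classes with at least 50 cells in a library, it was highest in arterial endothelial-like cells, at 569 and 666 CPM. Next among compared classes came MuSC-like, Pi16 FAP-like and capillary endothelial-like cells, at 365 and 430, 299 and 439, and 320 and 389 CPM. Smooth muscle-like cells, 25 and 39 in number, had 174 CPM (79.6 to 331) and 802 CPM (672 to 950). Venous endothelial-like cells of the vehicle library had 556 CPM. Pericyte-like cells, Cxcl14 and Gdf10 FAPs and tenocyte-like cells held between 216 and 318 CPM. Lower levels were measured in glial-like cells (129 and 184 CPM) and macrophage-like cells (96.5 and 84.6 CPM), and the lowest in B cell-like cells (3.61 and 7.14 CPM, from 15 and 3 UMIs).

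**Figure D2:**
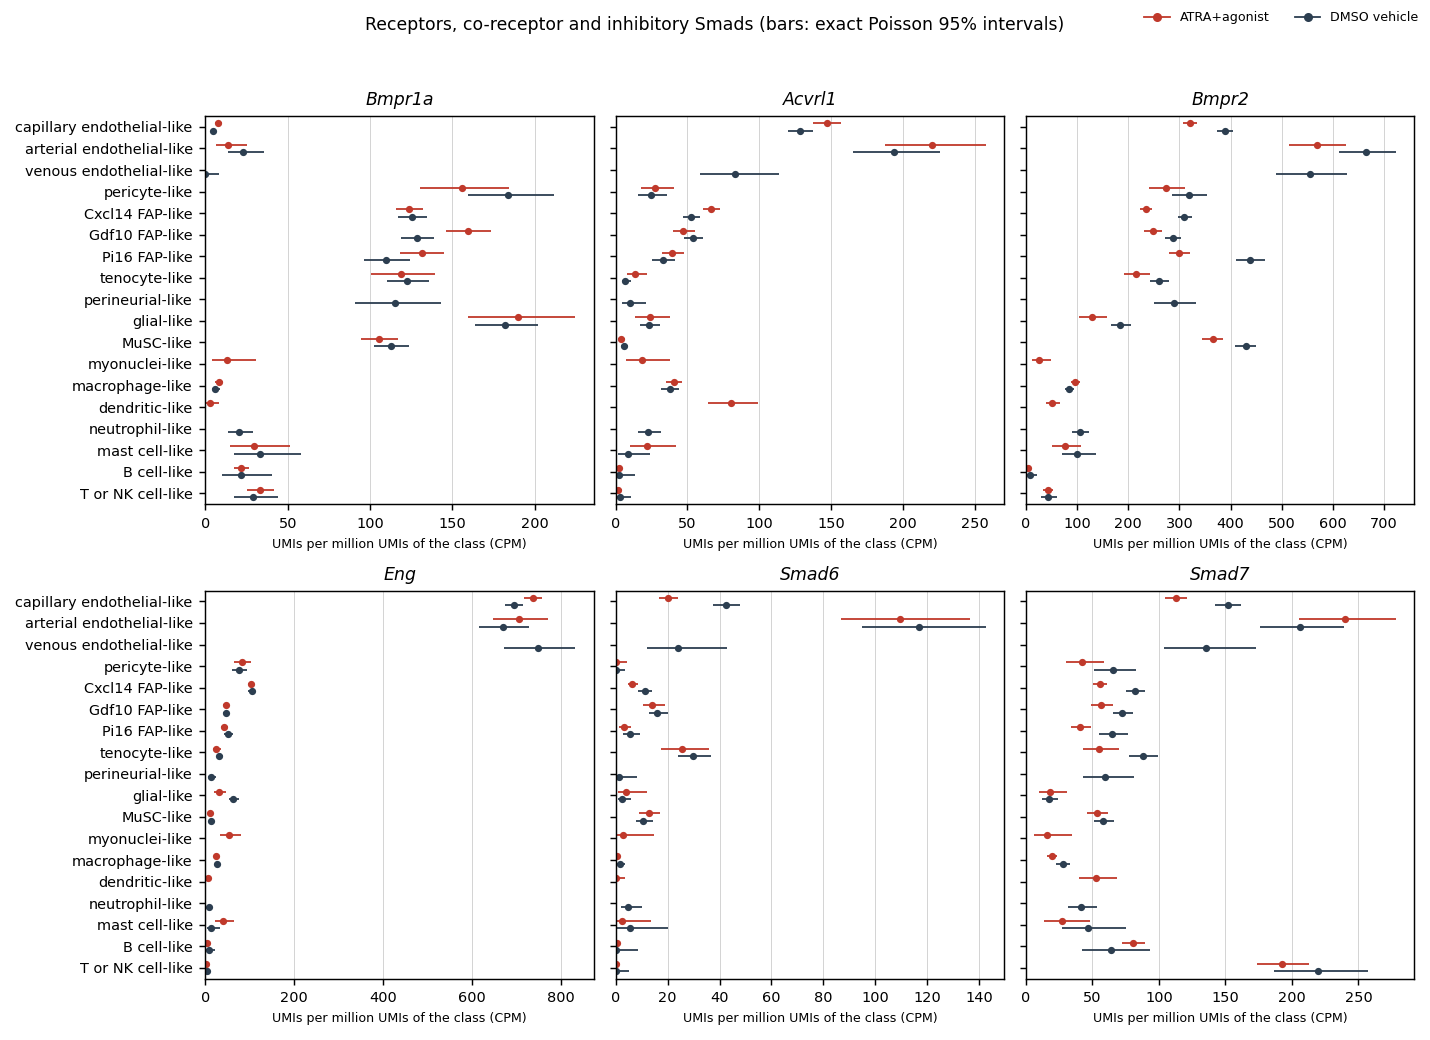
Level of the receptors Bmpr1a, Acvrl1 and Bmpr2, the co-receptor Eng and the inhibitory Smads Smad6 and Smad7 in each cell class of each library, in CPM with exact 95% counting intervals. Acvrl1 and Eng are high in endothelial classes, where Bmpr1a is at 7.71 and 4.66 CPM in capillary cells. Smad6 is high in arterial endothelial-like cells and much lower in capillary cells. Smad7 is high both in arterial endothelial-like (240 and 206 CPM) and T or NK cell-like cells (192 and 220 CPM).

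Among the UMIs of the 4 BMP type I receptor genes Bmpr1a, Bmpr1b, Acvrl1 and Acvr1 (ALK2), Acvrl1 took 72.9% (70.4 to 75.4) and 68.1% (65.4 to 70.7) in capillary endothelial-like cells and 73.3% and 67.6% in arterial endothelial-like cells. Bmpr1a took 3.83% and 2.47% in the capillary cells and 4.61% and 7.98% in the arterial cells, and most of the remainder was Acvr1. In pericyte-like cells, which sit on the same vessels, Bmpr1a took 63.0% and 67.5% and Acvrl1 11.1% and 8.90%. The 3 FAP classes ranged from 47.5% to 57.3% for Bmpr1a. In glial-like cells Bmpr1a took 52.1% and 42.5% and Acvr1 41.4% and 52.1%, so that the leading gene differed between the libraries. Bmpr1a took 36.2% and 36.7% in MuSC-like and 29.0% and 34.7% in tenocyte-like cells. A further type I receptor, Bmpr1b (ALK6), took 37.9% and 32.9% in MuSC-like and 45.2% and 31.2% in tenocyte-like cells, but had at most 5.55% in any FAP class and no UMI in glial-like and pericyte-like cells. Immune cells divided as well: Acvrl1 took 56.1% and 54.6% in macrophage-like cells and 83.3% (74.7 to 90.0) in dendritic-like cells, whereas Bmpr1a took 84.6% and 80.0% in T or NK cell-like cells, from 78 and 25 UMIs in all.

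**Figure D3:**
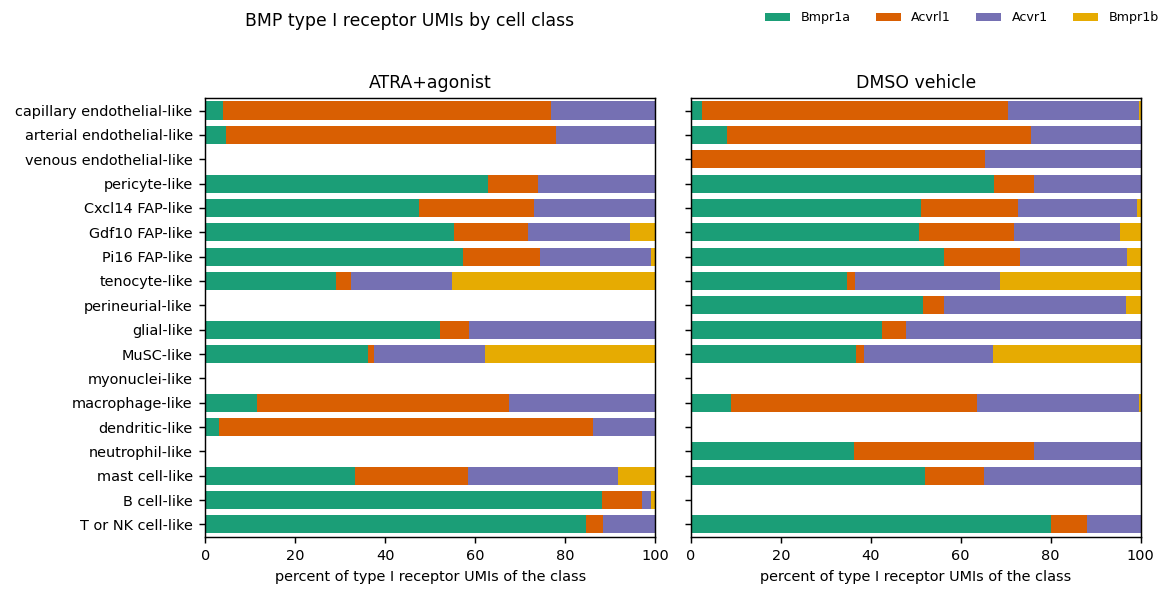
Share of the UMIs of the type I receptor genes Bmpr1a, Acvrl1, Acvr1 and Bmpr1b in each cell class, in percent, for each library, with no bar for a class with few or none of these UMIs. Acvrl1 leads in capillary (72.9% and 68.1%) and arterial (73.3% and 67.6%) endothelial-like cells, Bmpr1a in pericyte-like cells (63.0% and 67.5%), and Bmpr1b is sizeable in MuSC-like (37.9% and 32.9%) and tenocyte-like cells (45.2% and 31.2%).

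The inhibitory Smads were high in arterial endothelial-like cells, Smad6 more narrowly than Smad7. Smad6, which blocks BMP receptor signaling in particular, was highest in arterial endothelial-like cells, at 110 CPM (86.7 to 137) and 117 CPM (94.7 to 142). Its level was 20.1 CPM (16.8 to 24.0) and 42.5 CPM (37.6 to 47.9) in capillary endothelial-like cells and 25.6 and 29.8 CPM in tenocyte-like cells. Arterial cells were above every other compared class beyond the intervals in both libraries. Pericyte-like and T or NK cell-like cells had no Smad6 UMI, and Smad6 had the fewest UMIs of the 10 genes (1152 over all cells kept). A UMI was found in 33.1% and 41.1% of arterial endothelial-like cells, or 8.76% and 11.3% after thinning, and in 0 of 196 and 0 of 269 pericyte-like cells.

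Smad7, which restrains both BMP and TGF-beta receptors, measured 240 CPM (206 to 278) and 206 CPM (176 to 239) in arterial endothelial-like cells and 192 CPM (174 to 213) and 220 CPM (186 to 257) in T or NK cell-like cells, with overlapping intervals. Capillary endothelial-like cells had 113 and 152 CPM. B cell-like cells (80.6 and 64.3 CPM), FAPs, tenocyte-like, pericyte-like and MuSC-like cells held between 40.7 and 87.9 CPM, and glial-like cells had only 13 and 34 UMIs. Smad7 was thus not a marker of endothelium alone.

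To ask which BMP genes differed with the retinoids, the ATRA+agonist level was divided by the vehicle level in each class where a gene had at least 50 UMIs over both libraries. Of 130 pairs of gene and class, 85 passed this filter: 12 for Bmpr2, 11 each for Bmpr1a and Smad7, 10 for Eng, 8 each for Bmp6 and Acvrl1, 7 each for Bmp2 and Bmp4, 6 for Smad6 and 5 for Bmp5. At least 1.5-fold higher with ATRA+agonist were 5 of the 85 (5.88%), against 6.8% of all gene and class pairs. At least 1.5-fold lower were 10 of the 85 (11.8%), against 7.03% of all pairs. The median log2 ratio of the 85 was -0.09, and the median over all genes lay between -0.04 and 0.08 in every class. No p-value was computed because each group was a single library.

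**Figure D4:**
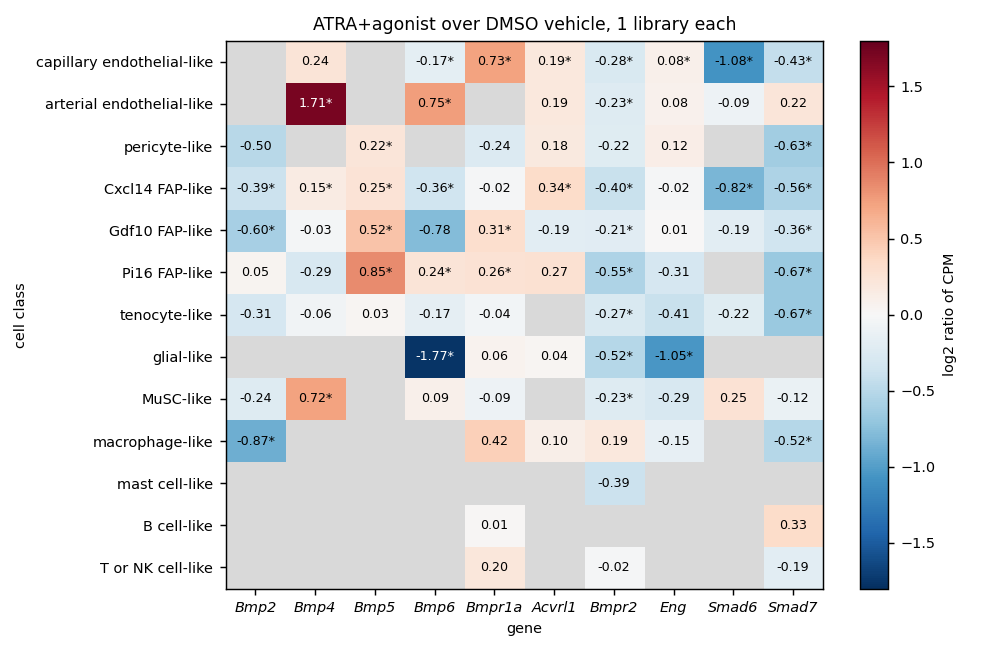
Log2 ratio of the ATRA+agonist over the vehicle level for each of the 10 genes (columns) in each class (rows), as a number and a colour (red higher, blue lower with ATRA+agonist), where an asterisk marks an exact 95% interval that left out 0 and grey marks pairs under 50 UMIs over both libraries. The ratios furthest from 0 are Bmp6 in glial-like cells (-1.77), Bmp4 in arterial endothelial-like cells (1.71), Smad6 in capillary endothelial-like cells (-1.08) and Eng in glial-like cells (-1.05), and Bmpr2 lies below 0 in 11 of 12 classes.

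The inhibitory Smads were lower in several classes of the ATRA+agonist library. In capillary endothelial-like cells Smad6 went from 274 UMIs in 1991 vehicle cells to 128 UMIs in 2249 ATRA+agonist cells, a log2 ratio of -1.08 (-1.39 to -0.77), in a class where 3.53% of all genes were at least 1.5-fold lower. The share of cells with a Smad6 UMI was 4.94% against 10.7%, or 2.00% against 3.90% after thinning. The ratio was past 1.5-fold under each of the 17 alternatives tried and ranged from -1.31 to -0.83. Because interferon-led cells were more frequent in the vehicle library, the ratio was taken within clusters too. It was -1.12 (-1.51 to -0.73) in the main capillary cluster of 1540 and 679 cells and -1.22 (-2.86 to 0.04) in the interferon-led cluster of 77 and 940 cells, and -1.14 over the class without the interferon-led cells. In arterial endothelial-like cells, where Smad6 was highest, the ratio was -0.09 (-0.54 to 0.35). Smad6 was also lower in Cxcl14 FAP-like cells, at 6.32 against 11.2 CPM, a log2 ratio of -0.82 (-1.40 to -0.26), from 44 and 72 UMIs, where 5.99% of all genes were at least 1.5-fold lower.

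Smad7 was below the vehicle level in 9 of 11 classes, and in 7 of them the interval left out 0. The ratio passed 1.5-fold in Pi16 FAP-like cells (40.7 against 64.9 CPM, log2 -0.67, -1.04 to -0.31), in tenocyte-like cells (55.1 against 87.9 CPM, log2 -0.67, -1.08 to -0.28) and in pericyte-like cells (42.4 against 65.4 CPM, log2 -0.63, -1.24 to -0.03). The background of genes at least 1.5-fold lower was 4.51%, 9.26% and 6.8% in these classes. Within the 2 larger pericyte sub-clusters, which held 77 and 174 cells and 110 and 69 cells, the Smad7 ratio was -0.40 (-1.15 to 0.32) and -0.14 (-1.60 to 1.44), so that the pericyte call was lost there. In Cxcl14 FAP-like and capillary endothelial-like cells the log2 ratios were -0.56 (-0.76 to -0.37) and -0.43 (-0.57 to -0.29), short of 1.5-fold. Within the main capillary cluster the Smad7 ratio was -0.75 (-0.92 to -0.58). Of the 1042 genes that could be compared in exactly 11 classes, 96 (9.21%) were below 0 in 9 or more, Smad7 among them. Of the same genes, 18 (1.73%) had 7 or more intervals below 0, again with Smad7 among them. Classes of a library share the same mice and the same sequencing run, so that they are not repeated measurements.

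Bmpr2 was lower in most cell types by a small amount. Its ratio was below 0 in 11 of 12 classes and ranged from -0.55 to 0.19, and none reached 1.5-fold. Of the 1639 genes compared in exactly 12 classes, 49 (2.99%) were below 0 in 11 or more. In 8 classes the Bmpr2 interval lay below 0, and 10 of these 1639 genes (0.61%) had 8 or more such intervals. Pi16 FAP-like cells had 299 CPM (ATRA+agonist) against 439 CPM (vehicle), a log2 ratio of -0.55 (-0.68 to -0.42), and Cxcl14 FAP-like cells 235 against 310 CPM, a log2 ratio of -0.40 (-0.50 to -0.31). MuSC-like and capillary endothelial-like cells gave -0.23 (-0.34 to -0.13) and -0.28 (-0.37 to -0.20). Macrophage-like cells were the single class above 0, at 0.19 (-0.01 to 0.39).

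Among the other receptors, Bmpr1a was 1.66-fold higher in capillary endothelial-like cells, a class where it was nearly absent (49 and 30 UMIs, log2 0.73, 0.04 to 1.43). In that class 6.29% of all genes were at least 1.5-fold higher. Its ratio was past 1.5-fold under 13 of 16 alternatives. Within the main capillary cluster the Bmpr1a ratio was 0.49 (-0.38 to 1.44). By sub-cluster it was 1.29 (0.24 to 2.41) in the largest and -0.29 (-1.31 to 0.77) in another. In the classes that carried Bmpr1a its ratio lay between -0.24 and 0.31. Acvrl1 was above the vehicle level in 7 of 8 classes by at most 0.34, with intervals above 0 in capillary endothelial-like (0.19, 0.06 to 0.33) and Cxcl14 FAP-like cells (0.34, 0.13 to 0.54). Of the 814 genes compared in exactly 8 classes, 15.4% were above in 7 or more and 26.4% had 2 or more intervals above 0. The Acvrl1 ratio was 0.10 (-0.08 to 0.29) within the main capillary cluster and 0.46 (-0.01 to 0.89) within the interferon-led cluster. In Cxcl14 FAP-like cells it was above 0 under 16 of 17 alternatives and -0.04 with thinned cells. Eng differed by 0.085 (0.03 to 0.14) in capillary and 0.08 (-0.10 to 0.25) in arterial endothelial-like cells, so that both Acvrl1 and Eng differed by less than 1.5-fold in these endothelial classes. The direction of Eng turned within the main capillary cluster, at -0.09 (-0.17 to -0.02), and without the interferon-led cells, at -0.06. In glial-like cells, where Eng was low, it had 22 UMIs in the ATRA+agonist and 124 in the vehicle library, a log2 ratio of -1.05 (-1.78 to -0.39).

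Among ligands, Bmp4 differed most in arterial endothelial-like cells. It had 68 UMIs in 139 ATRA+agonist cells and 24 UMIs in 151 vehicle cells, or 94.3 CPM (73.2 to 120) against 28.9 CPM (18.5 to 43.0), a log2 ratio of 1.71 (1.02 to 2.44). In this class 7.85% of all genes were at least 1.5-fold higher. A single ATRA+agonist cell carried 23 of the 68 UMIs, and without the cell with most UMIs in each library the ratio was 1.53. The share of cells with a Bmp4 UMI was 16.5% against 7.95%, or 5.84% against 3.31% after thinning. Dendritic cell markers summed to 265 CPM in the ATRA+agonist and 2659 CPM in the vehicle arterial cells. Cd74 made up 118 and 2095 CPM of these sums and H2-Ab1 47.2 and 466 CPM. Cd209a, Flt3, Itgax, Clec10a, Xcr1 and Ccr7 had no UMI in either library. Venous markers were detected with 7 of 8 and 5 of 8 genes and summed to 775 and 1026 CPM, with Sele at 0 in both libraries. Single venous genes went both ways, with Vwf at 248 and 167 CPM and Selp at 21 and 0 UMIs, but Vcam1 at 189 and 429 CPM and Icam1 at 297 and 415 CPM. Their part in the Bmp4 ratio was not tested.

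In MuSC-like cells Bmp4 had 605 UMIs against 437, a log2 ratio of 0.72 (0.54 to 0.90), where 6.43% of all genes were at least 1.5-fold higher. The ratio was 0.78 (0.60 to 0.96) within the larger MuSC cluster of 348 and 493 cells. When every cell was thinned to 1000 UMIs the ratio was 0.11 and no longer past 1.5-fold, whereas it was 0.65 as a mean of the per-cell CPM. FAP markers summed to 1128 and 1117 CPM in the MuSC-like cells. Bmp6, the other ligand of MuSCs, differed by 0.09 (-0.04 to 0.21).

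Bmp5 was above the vehicle level in 5 of 5 classes, as were 77 of the 745 genes compared in exactly 5 classes (10.3%). For Bmp5 4 intervals lay above 0, and 17 of these 745 genes (2.28%) had 4 or more. The ratio was 0.85 (0.28 to 1.43) in Pi16 FAP-like cells from 89 and 38 UMIs, where 5.54% of all genes were at least 1.5-fold higher. It was past 1.5-fold under 12 of 16 alternatives and fell to 0.03 when cells were assigned to classes one by one. In Cxcl14 FAP-like and Gdf10 FAP-like cells the ratio was 0.25 (0.13 to 0.36) and 0.52 (0.34 to 0.69). Tenocyte-like cells, second in level, gave 0.03, the single ratio of the 5 whose interval held 0. In pericyte-like cells, first in level, it was 0.22 (0.02 to 0.43), but -0.12 (-0.44 to 0.20) and 0.13 (-0.19 to 0.45) within the 2 larger sub-clusters, which took unequal shares of the class in each library. Bmp2 was below the vehicle level in 6 of 7 classes, and 9.84% of the 762 genes compared in exactly 7 classes were below in 6 or more. Bmp2 was 1.5-fold or more lower in Gdf10 FAP-like cells (27.9 against 42.2 CPM, log2 -0.60, -0.97 to -0.23) and macrophage-like cells (13.6 against 24.8 CPM, log2 -0.87, -1.32 to -0.43), with backgrounds of 5.39% and 4.01%. Single macrophage-like cells held 14 of the 79 and 27 of the 101 Bmp2 UMIs, and without them the ratio was -0.71. With 15% of cells removed as doublets it was -0.24. In Pi16 FAP-like cells, the main source of Bmp2, the ratio was 0.05 (-0.17 to 0.26).

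Bmp6 in its main source, capillary endothelial-like cells, was -0.17 (-0.23 to -0.11), and -0.01 (-0.08 to 0.07) within the main capillary cluster. In the interferon-led cluster of 77 and 940 cells Bmp6 was at 562 against 865 CPM, a log2 ratio of -0.62 (-0.86 to -0.39). It was lower in glial-like cells, at 69.4 CPM (51.5 to 91.4) against 236 CPM (215 to 259), a log2 ratio of -1.77 (-2.22 to -1.35), where 8.94% of all genes were at least 1.5-fold lower. The Csmd3-led cluster of 44 and 179 glial-like cells had 188 and 442 CPM, a log2 ratio of -1.23 (-1.69 to -0.80). The ratio in the class was -0.41 without removal of doublets, -0.32 with a limit of 10% mitochondrial UMIs and -3.23 with 15% of cells removed as doublets, settings that changed the number of glial-like cells to 222 and 468, 173 and 375, and 75 and 374. Macrophage markers summed to 197 and 2071 CPM in glial-like cells of the ATRA+agonist and vehicle libraries, of which Lyz2 made up 179 and 2056 CPM, and Fcgr1 had no UMI. Their part in the ratio was not tested. In arterial endothelial-like cells Bmp6 was 0.75 (0.28 to 1.23), from 95 and 65 UMIs, but -0.056 when cells were assigned to classes one by one. In Gdf10 FAP-like cells 19 and 48 UMIs gave -0.78, with an interval that held 0 (-1.63 to 0.01).

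**Figure D5:**
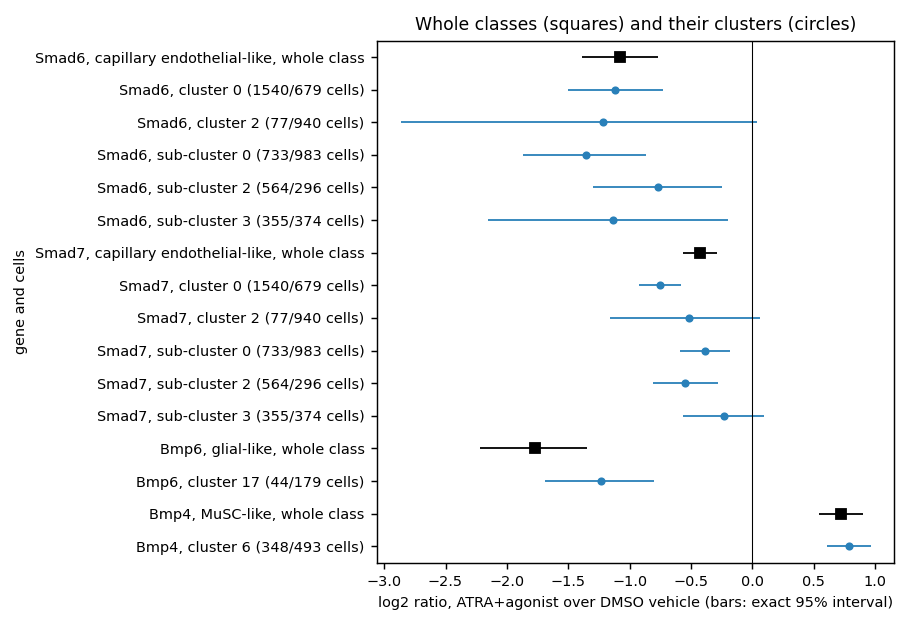
Log2 ratio of the ATRA+agonist over the vehicle level (x axis, bars for exact 95% intervals) of Smad6 and Smad7 in capillary endothelial-like, Bmp6 in glial-like and Bmp4 in MuSC-like cells, with whole classes as squares and their clusters, other than those with few UMIs of the gene, as circles. The Smad6 and Smad7 points drawn lie below 0, though the bars of some clusters reach past it, Bmp6 is at -1.77 in the whole glial-like class and -1.23 in its Csmd3-led cluster, and Bmp4 is at 0.72 in the MuSC-like class and 0.78 in its larger cluster.

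The rest of the pathway was described with 55 further genes, of which 43 had at least 100 UMIs and 1, Msx2, had none. Of 303 pairs of these genes and classes with 50 UMIs, 28 (9.24%) were at least 1.5-fold higher and 26 (8.58%) lower with ATRA+agonist, against 6.8% and 7.03% of all gene and class pairs. Ligands were 0 higher and 6 lower of 16 pairs, receptors and co-receptors 6 and 2 of 64, the pseudoreceptor Bambi and secreted antagonists 16 (20.3%) and 8 (10.1%) of 79, signal Smads and ubiquitin ligases 1 and 2 of 86, and target genes 5 and 8 of 58. Secreted antagonists bind ligands before they reach a receptor.

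The antagonists had their own cellular sources. Fst (follistatin) was highest in Gdf10 FAP-like cells at 647 and 389 CPM, a class whose cluster it led together with Gdf10. Sostdc1 was highest in glial-like cells at 295 and 158 CPM and Chrdl2 in MuSC-like cells at 106 and 126 CPM. Bmper was high in both Cxcl14 FAP-like cells (443 and 504 CPM) and Gdf10 FAP-like cells (455 and 395 CPM). Chrd, a relative of Chrdl2, was highest in tenocyte-like cells, with intervals that overlapped those of Cxcl14 FAP-like cells. Chrdl1 was at 153 and 115 CPM in tenocyte-like cells, and in the vehicle library at 128 CPM in perineurial-like and 118 CPM in glial-like cells, with overlapping intervals. The pseudoreceptor Bambi was highest in venous endothelial-like cells of the vehicle library at 122 CPM, with an interval that overlapped that of perineurial-like cells. Noggin (Nog), a classical BMP antagonist, had only 33 UMIs in all cells kept. Among signal Smads, Smad1 was highest in capillary endothelial-like cells at 161 and 172 CPM, overlapping venous endothelial-like cells of the vehicle library in its interval. Smad4 was highest in glial-like cells at 140 and 153 CPM, with intervals that overlapped those of MuSC-like cells in both libraries. The target genes Hey1 and Msx1 were highest in arterial endothelial-like cells, at 161 and 135 and at 80.4 and 99.9 CPM. Id1 was at 768 and 786 CPM in arterial and at 667 and 883 CPM in capillary endothelial-like cells, so that the order of these classes differed between the libraries. Gdf2 and Bmp10, the circulating ligands of ALK1, had 9 and 1 UMIs over all cells.

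Among the larger ratios of these genes whose intervals left out 0, those higher with ATRA+agonist included Fstl1 in mast cell-like cells (log2 1.54, 1.11 to 1.99), the neogenin gene Neo1 in arterial endothelial-like cells (1.37, 0.49 to 2.32), and Twsg1 in B cell-like (1.40, 0.45 to 2.55) and T or NK cell-like cells (1.17, 0.09 to 2.46). Bambi was higher in B cell-like cells as well (2.18, 0.29 to 5.25), where the vehicle library had 2 UMIs. In that class 16.9% of all genes were at least 1.5-fold higher, and 85 of its 641 ATRA+agonist cells formed a cluster with no vehicle cell, so that its ratios compare unlike mixtures of cells. Lower were Id4 (-1.56, -2.40 to -0.79) and Fst (-1.15, -2.15 to -0.23) in pericyte-like cells, the activin receptor gene Acvr2a in B cell-like cells (-1.50, -2.45 to -0.44) and Bmp8a in Cxcl14 FAP-like cells (-1.11, -1.94 to -0.32). The secreted protease gene Htra1 went both ways, at 144 against 400 CPM in glial-like cells (-1.47, -1.78 to -1.17) and 126 against 57.8 CPM in arterial endothelial-like cells (1.13, 0.61 to 1.66).

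The genes with the most similar levels over the 26 points of 13 classes and 2 libraries were named for each of the 10 genes, as a description, since the points share cells of the same libraries and differ in depth. Likeness was Pearson's r of log2(CPM + 1) over 11241 candidate genes. Bmp5 was most like Pdgfrb (r = 0.946), the receptor gene of pericytes and fibroblasts, and Bmp2 most like Egfr (r = 0.946). Bmp4 was most like Spats2l (0.936), Bmp6 most like Pxdc1 (0.873) and next to it Smad1 (0.862). For the receptors, Bmpr1a was most like Kirrel (0.931) and Bmpr2 most like Zcchc14 (0.934). Acvrl1 was most like Phf11d (0.934), and Eng was most like Acvrl1 (0.927). Smad6 was most like Cx3cl1 (0.928) and Smad7 most like Rundc3b (0.853).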

How the data were processed

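The authors demultiplexed the reads with BCL Convert and made UMI counts per gene and barcode with Cell Ranger 7.2.0 on mm10 (GRCm38), and these deposited counts were used as raw whole numbers, 65197625 and 109343486 UMIs in 10444 and 17394 barcodes. Cells with 300 to 5000 genes, under 20% mitochondrial and under 0.25% Hbb- UMIs were kept, after the study's methods, and 7.5% were removed as doublets by a rebuilt DoubletFinder step. Louvain clustering (2000 variable genes without 65 BMP pathway genes, 30 components, 20 neighbours, resolution 0.8; resolution 0.5 within endothelial and mural cells) was run in Python 3.11.15 with scikit-learn 1.9.0 and igraph 0.11.9. Naming thresholds (at least 3 markers at 2-fold, 1.5-fold within endothelial cells) were set after the clusters were seen. CPM intervals are exact Poisson, shares Clopper-Pearson, and ratios exact conditional on both counts (SciPy 1.17.1). The ratio step was tested on simulated data. With 1 library per group no test was run. The 10 members and all gene lists were chosen with earlier results of these data known. All members were named, with the larger of the other pathway ratios and up to 3 like genes each. Some items are not reported here. Alternatives concerned scaling, cell weighting, thinning, doublets, filters, thresholds, resolution and class assignment. Leaving out the interferon-led, the low-UMI endothelial and the single-library B cell-like cluster were chosen after seeing the data.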

Additional observations from a re-analysis of the deposited data

Results flagged for a closer look

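Bmp6 differed in opposite directions in 2 classes whose intervals both left out 0. The log2 ratio of ATRA+agonist over vehicle was 0.75 in arterial endothelial-like cells and -1.77 in glial-like cells, and the difference between these ratios was not tested. Eng, the endothelial co-receptor, was 0.085 in capillary endothelial-like cells and -1.05 in glial-like cells, and that difference was not tested either. The capillary value turned to -0.09 (-0.17 to -0.02) within the main capillary cluster and to -0.06 without the interferon-led cells.

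Some members gave a ratio away from 0 in cells outside the compared classes. In perineurial-like cells, which line nerve bundles and numbered 48 and 106, Bmpr2 was at 506 against 290 CPM, a log2 ratio of 0.81 (0.50 to 1.11). This was the opposite direction from the 11 compared classes with a lower Bmpr2. Smad7 in the same cells was at 101 against 59.7 CPM, a log2 ratio of 0.75 (0.05 to 1.45), while it was below 0 in 9 of 11 compared classes. In 105 and 191 endothelial cells that stayed unnamed, Eng was at 484 against 345 CPM, a log2 ratio of 0.49 (0.05 to 0.91). None of these ratios has a second library behind it.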

How the results depend on the processing

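Of the 10 genes, Bmp2, Bmpr1a, Acvrl1 and Smad6 had the same top class under all 17 alternatives. Eng had it under 9, with another endothelial class first in the rest, and Bmp6 under 14, with red blood cell-like cells first in the rest. Bmpr2 had it under 14, with smooth muscle-like or venous endothelial-like cells first in the rest. Bmp4 had it under 15, with MuSC-like cells first in the rest. Bmp5 and Smad7 had it under 16, and tenocyte-like and T or NK cell-like cells came first otherwise. With cells assigned one by one, 6 of 10 genes had the same top class and Bmp6 in arterial endothelial-like cells reversed to -0.056, and the cause was not tested. The 5 higher pairs became 9 with a minimum of 20 UMIs, 1 at 2-fold, 3 with thinned cells, 8 without doublet removal and 3 at resolution 0.4. The 10 lower pairs became 3 at 2-fold and 6 with thinned cells. Thinning left 50 pairs with enough UMIs, 33 of them inside the interval of the full data, and of the 15 pairs past 1.5-fold it left a value for 4, of which 2 were still past it. Smad6 in capillary endothelial-like cells was past 1.5-fold in 17 of 17 alternatives and Bmp4 in arterial endothelial-like cells in 16 of 16. A count of 0 in a class allows up to 3 UMIs. No paired analysis was possible because each group had 1 library.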

Other observations

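Bmp6 was also measured in endothelial cells that stayed unnamed, 105 in the ATRA+agonist and 191 in the vehicle library, at 1227 and 1257 CPM, a log2 ratio of -0.03 (-0.29 to 0.21). Lymphatic endothelial-like cells, led by Ccl21a and Mmrn1, had 0 and 4 Bmp6 UMIs in 12 and 8 cells. In a second MuSC-like cluster of 65 and 37 cells with a median of 2870 UMIs, Bmp6 was at 661 against 433 CPM, a log2 ratio of 0.61 (0.12 to 1.13), whereas in the larger MuSC cluster it was -0.02 (-0.15 to 0.11).

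Bmp5 was also measured in 67 and 111 unnamed cells led by Car3 and Cfd, at 118 CPM in the ATRA+agonist and 328 CPM in the vehicle library, a log2 ratio of -1.47 (-2.15 to -0.84). This is the reverse of its direction in the 5 compared classes. Bmpr1a stood at 241 and 211 CPM in the same cells. In 29 and 80 venous endothelial-like cells Bmpr2 was at 263 against 556 CPM (log2 -1.08, -1.84 to -0.41) and Eng at 443 against 750 CPM (log2 -0.76, -1.33 to -0.24). In 25 and 39 smooth muscle-like cells Bmpr2 had 9 and 134 UMIs, or 174 against 802 CPM, a log2 ratio of -2.20 (-3.36 to -1.24). Median depth in these cells was 1114 UMIs in the ATRA+agonist and 3960 in the vehicle library.

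Within the interferon-led capillary cluster of 77 and 940 cells, Bmp4 was at 94.3 against 39.0 CPM, a log2 ratio of 1.28 (0.62 to 1.88), from 27 and 137 UMIs. In the main capillary cluster the Bmp4 ratio was 0.23 (-0.12 to 0.59). In the B cell-like cluster found in both libraries, Smad7 was at 101 against 64.3 CPM, a log2 ratio of 0.65 (0.08 to 1.27), and in the whole class the ratio was 0.33 (-0.24 to 0.95).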
